A study of Homo sapiens with 42 samples.

Results

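The genes described here are targets of the sterol regulatory element binding proteins (SREBPs) that build cholesterol and fatty acids, with the genes that control these factors. They were chosen by name: 32 genes were listed, and a gene was taken where a row of the deposited table carried its symbol and no other, with the brightest row kept. Of the 32, 30 were measured among 18404 genes in all. HSD17B7 shared its only row with the pseudogene HSD17B7P2, and FDFT1 was not analysed here. CYP51A1 was the member with more than 1 row (2 rows, mean log2 9.93 for the one kept and 5.69 for the other). The measured members fall into 7 mevalonate pathway genes, 8 genes from squalene to cholesterol, 5 regulator and transport genes and 10 fatty acid genes. The first 2 groups together are called the 15 sterol enzymes below.

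Messenger RNA was measured on 42 arrays from 2 established lines of human lung cancer. The study calls H460, from a large-cell carcinoma, radiosensitive, and H1299, a non-small cell line, radioresistant. Growing monolayers were given 2 Gy of gamma radiation, and RNA was taken at 2, 4, 8, 12 or 24 h (3 arrays each per line), with 6 arrays per line at 0 h, before irradiation. The submitters describe unirradiated control cells, but no array after 0 h is labelled as unirradiated, so the hours since the dose and the hours in culture cannot be told apart in any change from 0 h. Replicates are labelled biological, and p-values measure the spread between these arrays. Values are log2 intensities, and a change of 1 is a doubling.

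SREBP precursors sit in the membrane of the endoplasmic reticulum, bound to the escort protein SCAP. When sterols are low, SCAP carries them to the Golgi, where proteases release the part that enters the nucleus and binds sterol regulatory elements in promoters, usually beside sites for NF-Y and Sp1. When sterols are high, INSIG proteins hold the complex back. SREBF2 encodes the factor with a preference for cholesterol genes and SREBF1 encodes forms with a preference for fatty acid genes, and both genes are themselves targets of the pathway. Arrays of messenger RNA do not measure the cleavage step.

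Sequences before the start sites are given for some of these genes. Of those printed, NSDHL and STARD4 hold no short core of the sterol regulatory element. The windows below are the 250 bases upstream of the start in RefSeq (GRCh38.p14), on the gene's own strand, 5′ to 3′. They were chosen for the feedback regulator INSIG1, for SREBF2, for the desaturase SCD and the transport gene STARD4, whose changes are among the largest below, and for NSDHL, which changed in H460 and was not called in H1299. Capitals mark CACNCCAC, a short core of the sterol regulatory element, and CCAAT, the box bound by NF-Y, on either strand, so that GTGGNGTG and ATTGG are their reverse forms.
INSIG1, chr7:155297628-155297877, plus strand: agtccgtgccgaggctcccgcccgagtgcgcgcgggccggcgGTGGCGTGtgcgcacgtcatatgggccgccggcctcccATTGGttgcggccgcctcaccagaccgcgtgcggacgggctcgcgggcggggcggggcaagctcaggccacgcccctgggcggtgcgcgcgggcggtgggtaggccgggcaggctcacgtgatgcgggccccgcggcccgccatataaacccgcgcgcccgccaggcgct
SREBF2, chr22:41832855-41833104, plus strand: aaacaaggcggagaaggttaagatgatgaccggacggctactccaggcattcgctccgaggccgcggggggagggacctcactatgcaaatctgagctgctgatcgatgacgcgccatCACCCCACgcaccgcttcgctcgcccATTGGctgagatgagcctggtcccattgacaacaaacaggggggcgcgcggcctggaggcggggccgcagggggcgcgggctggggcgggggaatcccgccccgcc
SCD, chr10:100346983-100347232, plus strand: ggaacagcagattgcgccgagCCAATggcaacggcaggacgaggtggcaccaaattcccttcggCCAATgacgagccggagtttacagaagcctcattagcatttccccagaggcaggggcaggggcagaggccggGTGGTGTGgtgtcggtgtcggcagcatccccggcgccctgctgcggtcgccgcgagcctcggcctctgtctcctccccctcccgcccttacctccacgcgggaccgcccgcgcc
NSDHL, chrX:152830813-152831062, plus strand: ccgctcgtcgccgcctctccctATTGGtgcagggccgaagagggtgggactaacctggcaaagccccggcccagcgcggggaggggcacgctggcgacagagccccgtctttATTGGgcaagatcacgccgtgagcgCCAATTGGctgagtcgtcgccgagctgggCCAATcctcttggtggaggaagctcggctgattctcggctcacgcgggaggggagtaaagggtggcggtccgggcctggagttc
STARD4, chr5:111512536-111512785, minus strand: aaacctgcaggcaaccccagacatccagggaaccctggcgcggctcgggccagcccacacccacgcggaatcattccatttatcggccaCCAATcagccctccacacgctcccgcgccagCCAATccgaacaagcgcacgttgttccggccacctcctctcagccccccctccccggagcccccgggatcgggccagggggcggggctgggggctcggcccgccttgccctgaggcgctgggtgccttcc

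Windows of 300 bases (250 before and 50 after the start) were in the RefSeq table for 27 of the 30 members and for 14230 of the genes tested. CCAAT, on either strand, was in a window of 19 of the 27 members (70.4%), against 42.2% of all these genes. It was in 11 of 13 sterol enzymes (84.6%) and in 5 of 9 fatty acid genes (55.6%). The GC box GGGCGG, the letters bound by Sp1, was in 26 of 27 members (96.3%), against 65.9% of all. The longer sterol core TCACNCCAC was in SREBF2 alone of the 27 (3.7%, against 1.51% of all), and the shorter CACNCCAC, which the longer one contains, was in 6 (22.2%, against 7.94%): INSIG1, SREBF2, IDI1, SC5D, SCD and ACACA. The E-box CACGTG was in 4 of 27 (14.8%, against 10.9%). These are matches of letters, not measured binding.

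The arrays differed in width, the interquartile range of the log2 values of all genes on an array. Before irradiation the 6 arrays of H460 had a mean width of 3.34 ± 0.169 (SD) and the 6 of H1299 one of 3.58 ± 0.173. In H460 the mean at 4 h was the same as at 0 h (3.34 ± 0.0521, n = 3), but at 2 h it was 2.84 ± 0.117, the narrowest group, and at 8 h it was 3.64 ± 0.0213 (n = 3 each). The widest group was H1299 after 12 h (3.82 ± 0.0997, n = 3). Most calls of members in H460 at 8 and 12 h, and 15 of the 26 at 24 h, were lost in a fit with width as a covariate, and the calls that held in it are named with the counts.

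Epithelial markers were high in part. Of 6 epithelial markers 4 in H460 and 2 in H1299 lay above the median of all genes, and the mean of the 6 was between 8.20 and 8.48 on the H460 arrays and between 6.59 and 7.03 on those of H1299. The keratins KRT8 and KRT18 were high in both lines, KRT19 was at 11.36 in H460 and 5.23 in H1299 at 0 h, and EPCAM (3.97 and 3.67) and CDH1 (3.78 and 3.71) were low in both. Of 6 fibroblast markers 2 and 1 were above that median, with array means of 4.90 to 5.30 in H460 and 4.12 to 4.60 in H1299. Of 5 leukocyte markers 1 was above it in each line, CD68 (8.78 and 8.90 over all arrays), with array means of 4.67 to 5.10 and 4.25 to 4.74, and PTPRC was the lowest (2.73 and 2.62). At 24 h in H460 KRT19 was called higher (0.52), as were LUM (1.18), PDGFRB (0.36) and CD14 (0.59), and COL1A2 lower (fell by 0.53). Of these CD14 alone was called with width in the model (0.87, limma adjusted p = 0.00126), and in H1299 no marker of the 3 lists was called at 24 h in either fit. The part of these genes in the results was not tested.

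In H460 most members were called higher at 8, 12 and 24 h, among sterol and fatty acid genes alike, in the fit without array width, and fewer were in the fit with it. A gene is called when its adjusted p is under 0.05 (limma contrast against 0 h, Benjamini-Hochberg over all genes). At 8 h 20 of 30 members were called higher, beside 10.7% of all genes. At 12 h the number was 27 of 30, beside 16.7% of all genes, and at 24 h it was 26 of 30, beside 16.2%. None was called lower at these 3 times, where 6.22%, 16.8% and 12.4% of all genes were. The median change of all 30 was 0.38, 0.54 and 0.52 at 8, 12 and 24 h, where the median of all genes was -0.03, -0.04 and -0.05. At 4 h HMGCS1, SCD and FADS2 were called higher (3 of 30, beside 1.37% of all genes) and none lower (beside 1.55%).

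Array width moved with these results: with width in the model 2 of 30 members were called at 8 h (beside 0.717% of all genes), 7 at 12 h (3.41%) and 11 at 24 h (8.41%), all higher. Those at 8 h were FADS2 and SCD, and those at 12 h were ACACA, ACSS2, DHCR7, FADS2, LSS, SCD and STARD4. The 11 at 24 h were DHCR7, LSS, SREBF1, SREBF2, STARD4, AACS, ACSS2, FASN, SCD, FADS1 and FADS2. Every other call of a member against 0 h in H460 at 8, 12 or 24 h was lost in that fit. At 4 h 4 members were called in it (beside 5.31% of all genes), NSDHL with the 3 above. The number at 8 h also rested on single arrays: it was 12 without replicate 1 of 8 h, 12 without replicate 2 and 13 without replicate 3. At 4 h it was as low as 1 when an array was left out.

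In H1299 between 11 and 12 members were called at each time from 4 to 24 h, more than in H460 at 4 h and fewer at 8, 12 and 24 h, and most of them were fatty acid or regulator genes. At 4 h 12 of 30 were called higher, beside 10% of all genes. At 8 h 11 were higher, beside 15%, at 12 h 11, beside 16.6%, and at 24 h 12, beside 8.53%. None was called lower at these 4 times, where 5.83%, 9.54%, 13.1% and 3.21% of all genes were. The median change of the 30 was 0.14, 0.15, 0.16 and 0.20 at 4, 8, 12 and 24 h, and the median of all genes lay between -0.06 and 0.00. With width in the model 12, 10, 8 and 14 members were called in either direction at these times, beside 19.2%, 15.6%, 17.7% and 14.6% of all genes. The count was then above that of H460 at all 4 times, and so was the share of all genes called. EBP was then called lower at 4, 8 and 12 h and ACAT2 at 12 h.

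Over the whole course, tested by a quadratic in hours (limma moderated F-test over the 21 arrays of a line), 27 of 30 members were called in H460, beside 41.9% of all genes, and 16 of 30 in H1299, beside 36.5%. With width in the model the number in H460 was 17 (beside 15.8%) and in H1299 it was 12 (22.9%). Of the 15 sterol enzymes, 13 were called in H460 and 4 in H1299, namely FDPS, LSS, CYP51A1 and TM7SF2. Of the 10 fatty acid genes, all 10 were called in H460 and 9, all but LPIN1, in H1299. Called in H460 and not called in H1299 were 12 members, 10 of them sterol enzymes.

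**Figure D1:**
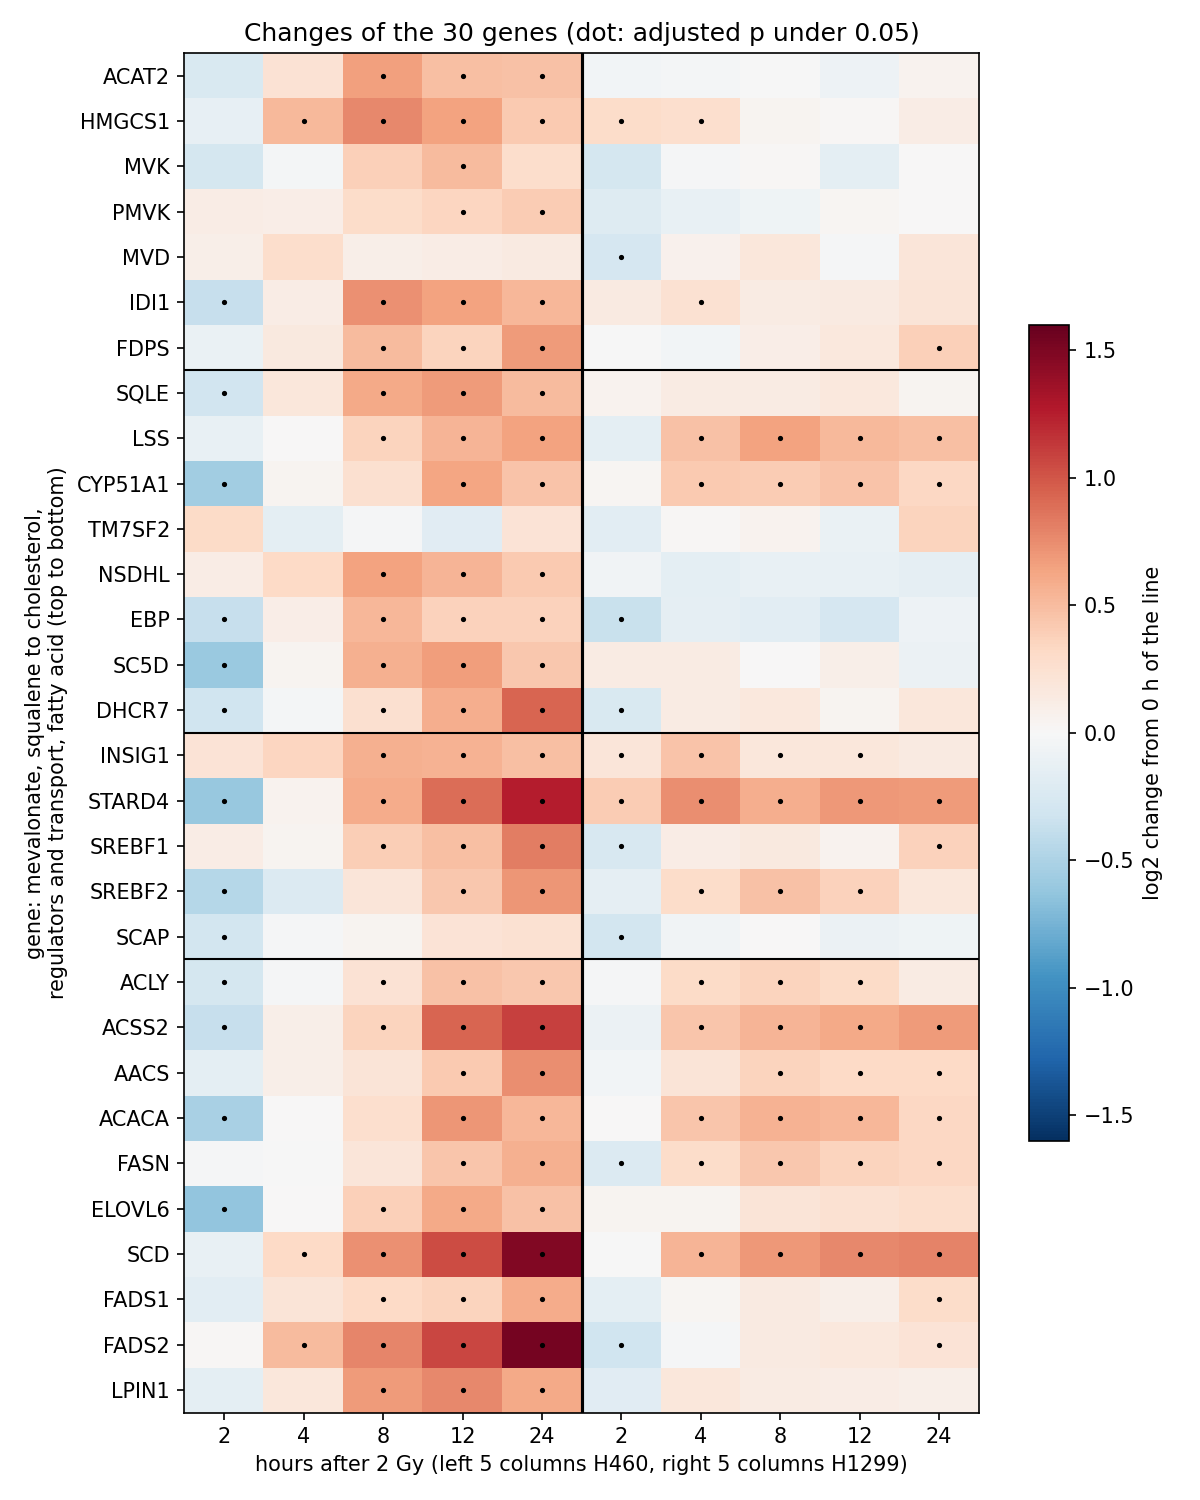
Log2 change from 0 h of each of the 30 genes (rows, in the order mevalonate, squalene to cholesterol, regulators and transport, fatty acid) at 5 times in H460 (left 5 columns) and H1299 (right 5 columns). Colour gives the change and a dot an adjusted p under 0.05. H460 holds 27 dots at 12 h and H1299 holds 11, in the fit without array width.

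Among the 7 mevalonate pathway genes, which make the isoprenoid units of cholesterol from acetyl-CoA, 4 were called higher at 8 h in H460, 6 at 12 h and 5 at 24 h. Beside them stand 10.7%, 16.7% and 16.2% of all genes. None of the 7 was called at 8 or 12 h in H1299, where 15% and 16.6% of all genes were called higher. HMGCS1, which makes HMG-CoA, shows the pattern. Its level in H460 ran from 7.55 through a median of 8.10 to 8.34 at 0 h, and was 8.91, 8.74 and 8.85 at 8 h and 8.49, 8.46 and 8.50 at 24 h. All 8 h and 24 h arrays lay above every 0 h array. The change was 0.77 ± 0.144 (SE) at 8 h (limma adjusted p = 0.00109) and 0.42 ± 0.144 at 24 h (limma adjusted p = 0.0299). The 24 h call was lost without replicate 1 of 0 h (limma adjusted p = 0.0587) or without replicate 1, 2 or 3 of 24 h (0.0796, 0.0864 and 0.0825). The changes were 0.55 (0.252) and 0.19 (0.647) with width in the model, neither called.

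HMGCS1 in H1299 was higher early and then back at its 0 h level. Its arrays ran from 8.78 through a median of 8.95 to 9.11 at 0 h, and read 9.20, 9.19 and 9.36 at 2 h, 9.25, 9.26 and 9.15 at 4 h, and 9.02, 9.00 and 8.97 at 8 h. The 2 h and 4 h arrays lay above all 0 h arrays and the 8 h arrays lay within them. The changes were 0.30 ± 0.0666 at 2 h (limma adjusted p = 0.00407), 0.27 ± 0.0666 at 4 h (0.00609) and 0.04 ± 0.0666 at 8 h (0.697). Without replicate 3 of 2 h the 2 h call was lost (limma adjusted p = 0.0518).

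The other mevalonate genes of H460 follow, and none was called at 8, 12 or 24 h with width in the model. ACAT2, which condenses acetyl-CoA, was at 7.92 to 8.82 (median 8.19) at 0 h and at 8.99, 8.91 and 8.82 at 8 h, a change of 0.65 ± 0.139 (limma adjusted p = 0.0032), its replicate with 8.82 level with the highest 0 h array. IDI1, the isomerase that supplies the reactive isoprenoid, was at 8.41 to 9.08 (median 8.60) at 0 h and at 9.40, 9.35 and 9.39 at 8 h, above every 0 h array. Its change was 0.73 ± 0.144 at 8 h (limma adjusted p = 0.00179) and 0.53 ± 0.144 at 24 h (0.0076), or 0.36 and 0.16 with width in the model (0.496 and 0.684). FDPS, which makes farnesyl diphosphate, changed by 0.51 at 8 h, 0.36 at 12 h and 0.68 ± 0.123 at 24 h (limma adjusted p = 0.000194), with arrays of 9.28, 9.35 and 9.31 at 24 h against 8.14 to 8.96 (median 8.66) at 0 h. The 24 h change of FDPS was 0.40 with width in the model and was not called (limma adjusted p = 0.107). MVK, the first kinase of the pathway, was called at 12 h (0.51 ± 0.134, limma adjusted p = 0.00589) and not at 24 h (0.28, 0.121).

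PMVK, the second kinase, was called at 12 h (0.34) and 24 h (0.41) in H460. Its 12 h call was lost without any 1 of the 3 arrays of 12 h, with limma adjusted p between 0.0529 and 0.161. The decarboxylase MVD was not called in H460 at any time, with changes between 0.09 and 0.28. In H1299 FDPS was the mevalonate gene called at 24 h: 9.28, 9.11 and 9.06 against 8.57 to 8.83 (median 8.80) at 0 h, with no overlap and a change of 0.38 ± 0.0673 (limma adjusted p = 0.000353) that was called in both fits.

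Of the 8 measured genes that turn squalene into cholesterol, 6 were called higher in H460 at 8 h and 7 at both 12 and 24 h. Beside them stand 10.7%, 16.7% and 16.2% of all genes. In H1299 the number was 2 at 4, 8, 12 and 24 h, and these were LSS and CYP51A1 each time. Called higher there were 10%, 15%, 16.6% and 8.53% of all genes. SQLE, the epoxidase and a control point of the branch, was at 8.89 to 9.29 (median 9.12) in H460 at 0 h and at 9.78, 9.78 and 9.71 at 12 h, above all 0 h arrays, a change of 0.68 ± 0.112 (limma adjusted p = 0.000126), which with width in the model was 0.38 and not called (0.149). SQLE in H1299 was at 9.94 to 10.33 (median 10.23) at 0 h and at 10.33, 10.48 and 10.32 at 12 h, with overlap and a change of 0.17 ± 0.0674 that was not called (limma adjusted p = 0.0547).

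NSDHL, which acts in removing the C4 methyl groups of sterols, stood at the same level in both lines before irradiation. In H460 it was at 8.41 to 8.90 (median 8.72) at 0 h, at 9.39, 9.32 and 9.31 at 8 h, at 9.27, 9.27 and 9.18 at 12 h and at 9.08, 9.17 and 9.09 at 24 h. NSDHL in H1299 was at 8.66 to 8.90 (median 8.73) at 0 h and at 8.61, 8.58 and 8.69 at 8 h. All later H460 arrays named here lay above the H460 0 h arrays, whereas the 8 h arrays of H1299 lay in the lower part of, or just below, its 0 h range. The 8 h change was 0.64 ± 0.103 in H460 (limma adjusted p = 0.00024) and -0.11 ± 0.063 in H1299 (0.193). NSDHL in H460 was called at 4 h with width in the model, and its 8 h change was then 0.43 and not called (limma adjusted p = 0.129).

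DHCR7, which catalyses the last step to cholesterol, was highest at 24 h in H460. Its arrays ran from 8.50 through a median of 8.68 to 8.86 at 0 h and read 9.24, 9.37 and 9.22 at 12 h and 9.60, 9.61 and 9.67 at 24 h, with no overlap. The changes were 0.58 ± 0.0899 at 12 h (limma adjusted p = 5.36e-05) and 0.93 ± 0.0899 at 24 h (3.97e-08), and 0.84 at 24 h with width in the model. In H1299 DHCR7 was at 8.59 to 8.99 (median 8.89) at 0 h and at 8.99, 8.95 and 9.12 at 24 h, a change of 0.18 ± 0.0734 that was not called (limma adjusted p = 0.137).

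LSS, the cyclase that forms lanosterol, and CYP51A1, the demethylase that acts on it, changed in both lines. LSS in H1299 was at 7.46 to 7.91 (median 7.75) at 0 h, at 8.18, 8.22 and 8.24 at 4 h and at 8.37, 8.38 and 8.41 at 8 h. No array at 4 or 8 h overlapped those at 0 h, and the changes were 0.47 ± 0.0794 (limma adjusted p = 0.000155) and 0.65 ± 0.0794 (2.37e-06). LSS in H460 was at 6.71 to 6.97 (median 6.89) at 0 h and at 7.47, 7.35 and 7.70 at 24 h, also without overlap, a change of 0.64 ± 0.103 (limma adjusted p = 4.86e-05) that was 0.69 with width in the model. CYP51A1 in H1299 was at 9.56 to 10.07 (median 9.95) at 0 h and at 10.30, 10.38 and 10.30 at 12 h, a change of 0.46 ± 0.101 (limma adjusted p = 0.00123), or 0.24 and not called with width in the model (0.0952). Its 24 h call in H1299 (0.33) was lost without replicate 3 of 24 h (limma adjusted p = 0.346) and 3 other arrays. In H460 it changed by 0.26 at 8 h (limma adjusted p = 0.176) and by 0.63 ± 0.135 at 12 h (0.00136), the latter 0.31 and not called with width in the model (0.411).

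EBP, the sterol isomerase, and SC5D, the desaturase after it, were called higher in H460 at 8, 12 and 24 h, with changes of 0.54, 0.37 and 0.37 for EBP and of 0.57, 0.67 and 0.43 for SC5D. None of these 6 calls held with width in the model: the SC5D change at 24 h was then -0.012. Without replicate 2 of 24 h the limma adjusted p of SC5D was 0.248. The EBP call at 24 h was lost without any 1 of the 3 arrays of 24 h (limma adjusted p of 0.0785, 0.0862 and 0.0592). TM7SF2, a sterol reductase, was not called against 0 h in H460 at any time, with changes between -0.18 and 0.31. In H1299 it was called in the quadratic course (limma adjusted p = 0.0433) but at no single time.

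**Figure D2:**
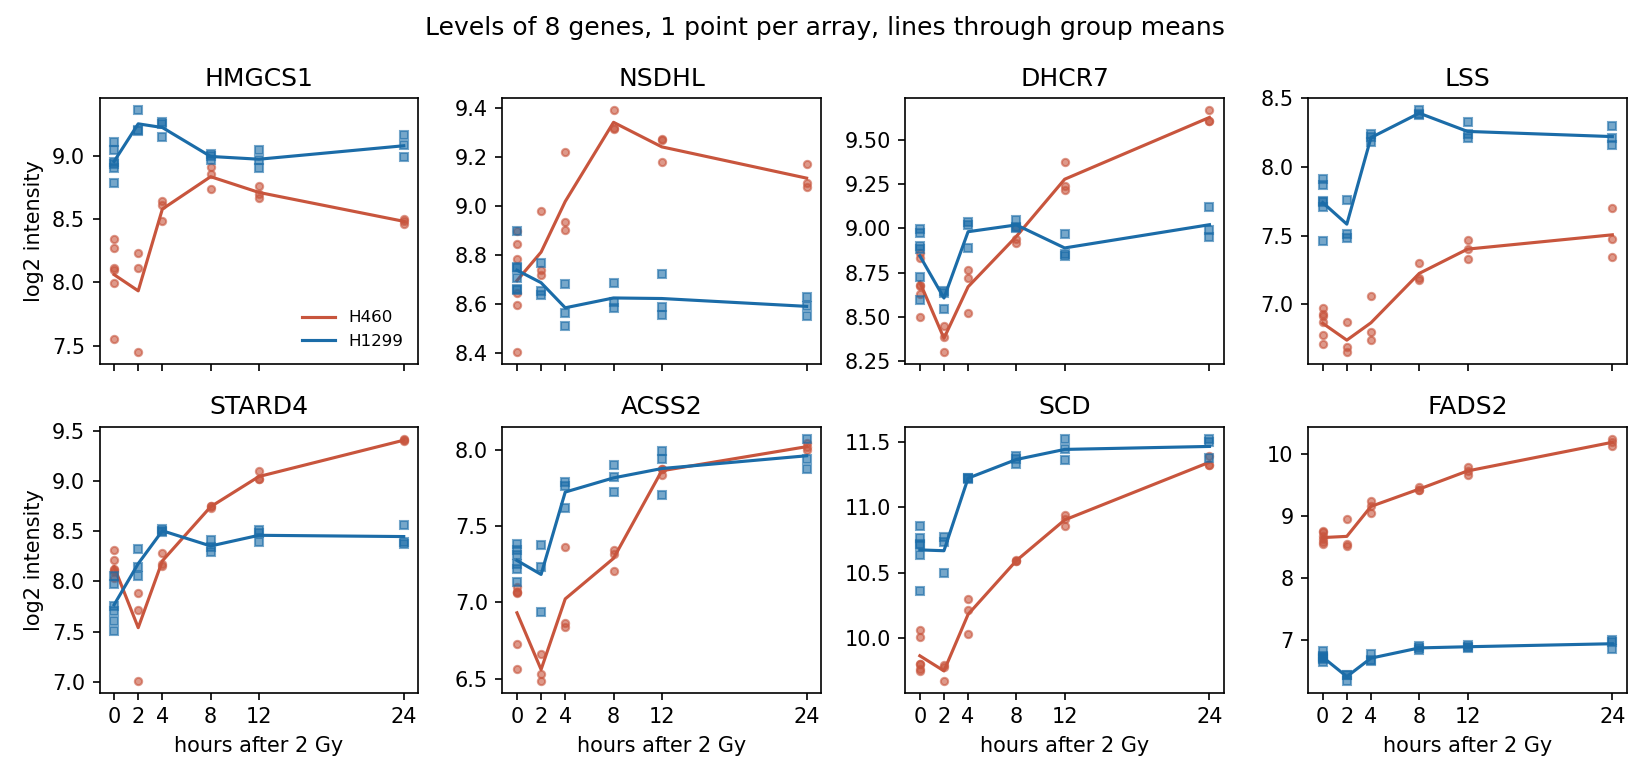
Log2 intensity of 8 genes against hours after 2 Gy, 1 point per array, H460 in red circles and H1299 in blue squares, with lines through the group means. HMGCS1, NSDHL and DHCR7 part between the lines, LSS and ACSS2 are higher late in both, and FADS2 reaches 10.19, 10.12 and 10.24 at 24 h in H460.

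Of the 5 regulator and transport genes, 4 were called higher in H460 at 12 and 24 h (INSIG1, STARD4, SREBF1 and SREBF2) and SCAP was not. The shares of all genes called higher at these times were 16.7% and 16.2%. STARD4, which carries cholesterol between membranes, changed most. In H460 it was at 8.03 to 8.31 (median 8.12) at 0 h, at 8.75, 8.73 and 8.75 at 8 h, at 9.02, 9.10 and 9.02 at 12 h and at 9.42, 9.40 and 9.40 at 24 h. Every later array listed lay above the 0 h arrays, and the change at 24 h was 1.26 ± 0.122 (limma adjusted p = 4.29e-08), or 1.08 with width in the model. STARD4 in H1299 was at 7.50 to 8.05 (median 7.73) at 0 h, at 8.52, 8.50 and 8.49 at 4 h and at 8.40, 8.38 and 8.57 at 24 h, above 0 h at both times. There the change was 0.74 ± 0.0917 at 4 h (limma adjusted p = 5.05e-06) and 0.68 ± 0.0917 at 24 h (1.51e-05).

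INSIG1, the retention protein, peaked at 4 h in H1299. It was at 8.67 to 8.89 (median 8.80) at 0 h and at 9.38, 9.24 and 9.14 at 4 h, with no overlap, a change of 0.46 ± 0.0636 (limma adjusted p = 1.91e-05). At 24 h the change there was 0.14 (limma adjusted p = 0.187). In H460 INSIG1 was at 7.58 to 8.27 (median 8.14) at 0 h and at 8.51, 8.67 and 8.65 at 8 h, a change of 0.57 ± 0.122 (limma adjusted p = 0.00333), and at 24 h the change was 0.48 (0.00438). With width in the model INSIG1 was not called at 8, 12 or 24 h in H460. In H1299 its calls at 8 and 12 h (0.18 each) were lost without single arrays, among them replicate 3 of 8 h (limma adjusted p = 0.138) and replicate 3 of 12 h (0.121), and with width in the model.

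The times at which the factor genes themselves were called differed between the lines, and a difference in timing was not tested. SREBF1 in H460 was at 7.34 to 7.68 (median 7.45) at 0 h and at 8.26, 8.31 and 8.31 at 24 h, without overlap, a change of 0.82 ± 0.115 (limma adjusted p = 7.94e-06). H1299 arrays of SREBF1 were at 7.82 to 8.07 (median 8.01) at 0 h and at 8.41, 8.37 and 8.27 at 24 h, also without overlap, a change of 0.37 ± 0.0627 (limma adjusted p = 0.000261), of which 0.32 ± 0.0724 came between 12 and 24 h (0.00744). Between those times SREBF1 was the 1 member of 30 called higher in H1299, beside 3.24% of all genes, with none lower (beside 5.11%). That count was 0 with all 42 arrays in 1 fit or without replicate 1 of 24 h. It was 2 without replicate 1 of 2 h, 5 without replicate 2 of 0 h and 3 after quantile normalization. With width in the model it was 5 (SREBF1, FADS1, FDPS, ACAT2 and EBP), beside 5.09% of all genes higher and 3.56% lower. SREBF2 was called in H1299 at 4, 8 and 12 h, with its largest change at 8 h (0.47 ± 0.0936, limma adjusted p = 0.000631), and was at 0.18 at 24 h (0.251); its 12 h call was lost with width in the model. In H460 it was called at 12 and 24 h, with arrays of 8.34, 8.35 and 8.34 at 24 h against 7.29 to 7.99 (median 7.66) at 0 h and a change of 0.71 ± 0.123 (limma adjusted p = 0.000121). SCAP stayed uncalled at 4 to 24 h in both lines, with changes between -0.09 and 0.25.

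All 10 fatty acid genes were called higher in H460 at 12 and at 24 h, beside 16.7% and 16.2% of all genes. Already called at 8 h were 7 of them, beside 10.7%. With width in the model FADS2 and SCD were called at 8 h, and ACACA, ACSS2, FADS2 and SCD at 12 h. At 24 h AACS, ACSS2, FASN, SCD, FADS1 and FADS2 were called in that fit. In H1299, without width, 5 of the 10 were called at 4 h, 6 at 8 h, 6 at 12 h and 7 at 24 h. Called higher there were 10%, 15%, 16.6% and 8.53% of all genes. FADS2, the desaturase that starts the synthesis of long polyunsaturated fatty acids, changed most in H460. It was at 8.54 to 8.75 (median 8.65) at 0 h, at 9.17, 9.24 and 9.05 at 4 h, at 9.65, 9.79 and 9.72 at 12 h and at 10.19, 10.12 and 10.24 at 24 h. The arrays at each of these times lay above those at 0 h, and the 24 h arrays above those at 12 h. Its change of 1.53 ± 0.0927 at 24 h (limma adjusted p = 8.14e-12) is a 2.89-fold rise, and it was 1.49 with width in the model. In H1299 FADS2 was at 6.65 to 6.83 (median 6.72) at 0 h and at 7.00, 6.98 and 6.86 at 24 h, above 0 h by 0.22 ± 0.0682 (limma adjusted p = 0.0396). That call was lost without any of 5 arrays, among them replicate 1 of 24 h (limma adjusted p = 0.181) and replicate 2 of 24 h (0.139).

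SCD, which puts the double bond into stearate, rose in both lines. In H460 it was at 9.75 to 10.06 (median 9.80) at 0 h, at 10.60, 10.59 and 10.59 at 8 h, at 10.91, 10.86 and 10.94 at 12 h and at 11.33, 11.39 and 11.32 at 24 h. Each step was free of overlap with the one before, and the change at 24 h was 1.48 ± 0.0841 (limma adjusted p = 2.79e-12), or 1.34 with width in the model. H1299 arrays of SCD were at 10.36 to 10.86 (median 10.72) at 0 h, at 11.23, 11.22 and 11.23 at 4 h and at 11.38, 11.50 and 11.52 at 24 h. There the change was 0.55 ± 0.0785 at 4 h (limma adjusted p = 2.55e-05) and 0.79 ± 0.0785 at 24 h (1.99e-07). SCD and FADS2 were the members called higher at 24 h than at 12 h in H460, by 0.44 ± 0.0971 (limma adjusted p = 0.0142) and 0.46 ± 0.107 (0.0197). These are 2 of 30 members, beside 1.31% of all genes, and none was lower (beside 0.636%). The count was 0 without replicate 1 or 3 of 12 h or without any 1 of the 3 arrays of 24 h, 1 without replicate 2 of 12 h or with median centring, and 4 without replicate 3 of 2 h.

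The genes that supply acetyl-CoA and start the chain came next. ACSS2, which makes acetyl-CoA from acetate, was at 6.56 to 7.10 (median 7.06) in H460 at 0 h and at 8.02, 8.04 and 8.00 at 24 h, without overlap, a change of 1.09 ± 0.124 (limma adjusted p = 4.1e-07), or 0.89 with width in the model. ACSS2 in H1299 was at 7.14 to 7.39 (median 7.28) at 0 h and at 7.76, 7.79 and 7.62 at 4 h and 7.94, 7.87 and 8.07 at 24 h, above 0 h both times, with changes of 0.45 ± 0.088 (limma adjusted p = 0.000771) and 0.69 ± 0.088 (8.28e-06). ACLY, which makes it from citrate, rose by 0.47 ± 0.0808 at 12 h in H460 (limma adjusted p = 0.000159) and by 0.35 ± 0.0723 at 8 h in H1299 (0.000778). AACS, which activates acetoacetate, rose by 0.74 ± 0.103 at 24 h in H460 (limma adjusted p = 6.68e-06) and by 0.36 ± 0.0945 at 8 h in H1299 (0.00692), the latter lost without replicate 3 of 8 h (0.0679) or with width in the model (0.134). The ACLY change in H460 was 0.34 with width in the model and was not called (limma adjusted p = 0.0854).

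ACACA, the carboxylase that makes malonyl-CoA, was at 8.06 to 8.47 (median 8.31) in H460 at 0 h and at 8.98, 8.97 and 9.07 at 12 h, a change of 0.71 ± 0.105 (limma adjusted p = 3.07e-05). ACACA in H1299 was at 8.00 to 8.50 (median 8.40) at 0 h and at 8.91, 8.90 and 8.94 at 8 h, a change of 0.56 ± 0.0802 (limma adjusted p = 1.76e-05), and neither set overlapped its 0 h arrays. FASN, the synthase, rose by 0.57 ± 0.117 at 24 h in H460 (limma adjusted p = 0.000712) and by 0.43 ± 0.0616 at 8 h in H1299 (1.49e-05). ELOVL6, an elongase, was called in H460 at 8, 12 and 24 h (0.38, 0.61 and 0.46, none of them with width in the model) and at no single time in H1299, where its changes from 4 to 24 h were 0.04, 0.20, 0.25 and 0.28.

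FADS1, the second desaturase of the polyunsaturated path, rose by 0.60 ± 0.0902 at 24 h in H460 (limma adjusted p = 2.14e-05) and by 0.30 ± 0.083 in H1299 (0.0192), the latter lost without replicate 2 (0.146) or replicate 3 (0.0518) of 24 h. FADS1 and FADS2 overlap on opposite strands in RefSeq, and whether their probes share signal was not tested. LPIN1, a phosphatidate phosphatase of glycerolipid synthesis, was at 7.89 to 8.45 (median 8.26) in H460 at 0 h and at 8.93, 8.89 and 8.87 at 8 h, above all 0 h arrays, a change of 0.69 ± 0.121 (limma adjusted p = 0.000642), or 0.43 and not called with width in the model (0.252). LPIN1 in H1299 was at 9.36 to 9.71 (median 9.57) at 0 h and at 9.71, 9.59 and 9.75 at 8 h, which overlap, a change of 0.13 ± 0.066 that was not called (limma adjusted p = 0.153).

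Sterol enzymes and fatty acid genes moved alike in H460 at first and then apart, in means that were not adjusted for array width. With width in the model the members called at 8 h in H460 were FADS2 and SCD, both fatty acid genes. The mean difference from 0 h over the 15 sterol enzymes was 0.45, 0.437 and 0.445 on the 3 arrays at 8 h, and over the 10 fatty acid genes it was 0.436, 0.395 and 0.414. At 24 h the sterol enzymes were at 0.442, 0.463 and 0.476 and the fatty acid genes at 0.805, 0.796 and 0.815, so the sterol mean held its 8 h level while the fatty acid mean was higher on every array. The gap, sterol minus fatty acid, went from 0.029 (8 h) to -0.22 (12 h) and -0.35 (24 h). On the H1299 arrays the sterol enzymes were at 0.148, 0.106 and 0.152 at 24 h and the fatty acid genes at 0.311, 0.368 and 0.368. Sterol minus fatty acid there was -0.15, -0.25, -0.29 and -0.21 at 4, 8, 12 and 24 h. No test was made of these means, since the genes were chosen with earlier results known.

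**Figure D3:**
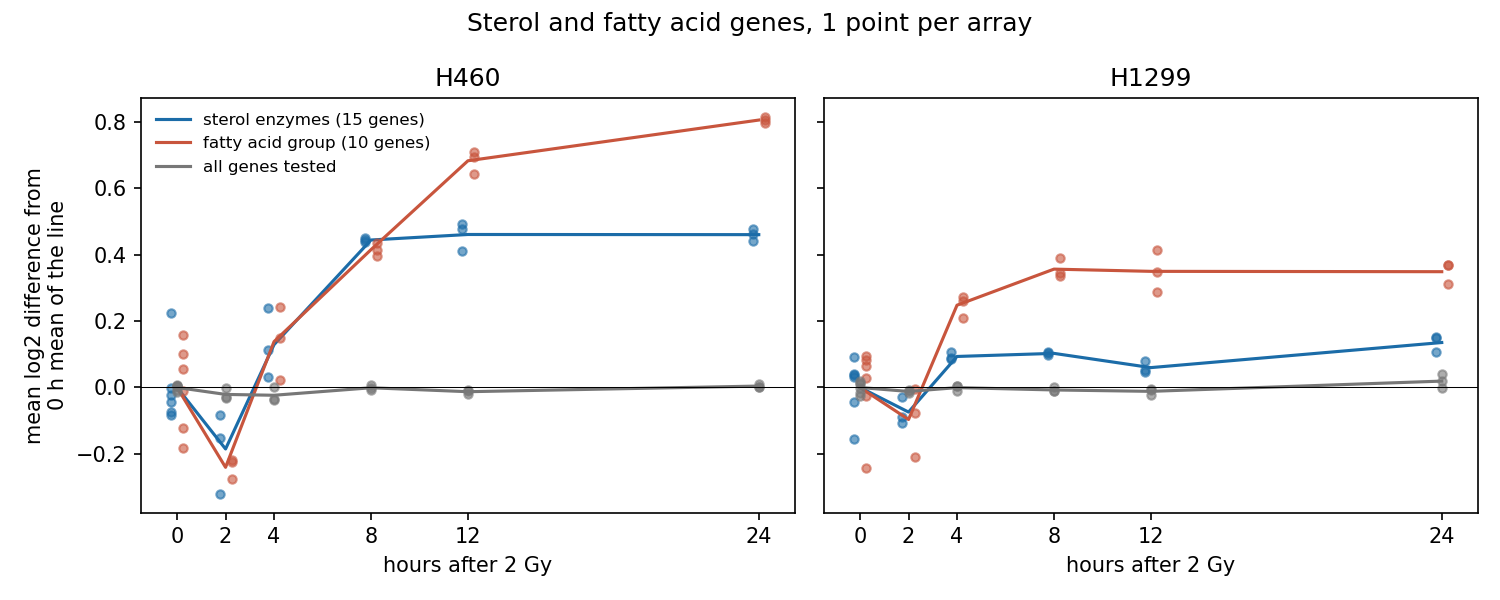
Mean log2 difference from the 0 h mean of the line, against hours after 2 Gy, for 15 sterol enzymes, 10 fatty acid genes and all genes tested; each point is 1 array and lines join group means. In H460 both groups stand near 0.4 at 8 h and the fatty acid group is near 0.8 at 24 h, while in H1299 the sterol enzymes stay below 0.2.

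By counts, 10 of 15 sterol enzymes and 7 of 10 fatty acid genes were called higher at 8 h in H460, and 12 of 15 and 10 of 10 at 24 h. The shares of all genes called higher there were 10.7% and 16.2%. In H1299 it was 2 of 15 against 6 of 10 at 8 h, beside 15% of all genes. At 24 h it was 3 of 15 against 7 of 10 there, beside 8.53%. With width in the model the H460 counts at 24 h were 2 of 15 (LSS and DHCR7) and 6 of 10, beside 4.4% of all genes. The medians at 24 h were 0.43 for sterol enzymes and 0.60 for fatty acid genes in H460, and 0.12 and 0.31 in H1299.

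The lines were compared directly by the H460 change minus the H1299 change (limma interaction over 42 arrays). At 8 h 9 of 30 members had a larger change in H460, beside 6.56% of all genes, and 7 of the 9 were sterol enzymes. At 12 h there were 11, beside 5.21%: the sterol enzymes ACAT2, HMGCS1, MVK, SQLE, NSDHL, EBP, SC5D and DHCR7, the fatty acid genes FADS2 and LPIN1, and SREBF1. At 24 h there were 10, beside 7.75%: SQLE, NSDHL and DHCR7 among sterol enzymes, STARD4, SREBF1 and SREBF2, and AACS, SCD, FADS2 and LPIN1. No member had a called difference in the other direction at these times, where 3.55%, 3.47% and 4.7% of all genes had one. With width in the model the 12 h count was again 11, with the same 8 sterol enzymes. In the line comparison with width the shares of all genes were 5.71% larger in H460 and 5.37% larger in H1299. Of these 8 enzymes, DHCR7 alone was called at 12 h in the fit of H460 by itself with width. At 8 h the count in the line comparison with width was 11, with ACACA larger in H1299, beside 7.67% of all genes larger in H460 and 6.08% larger in H1299. At 24 h it was 7, without SQLE, SREBF2 and AACS, beside 6.03% and 6.38% in the same order. The line comparison fitted width over 42 arrays and the fit of H460 by itself over 21. A line difference called with width therefore does not show that the H460 rise itself held with width.

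The differences were as large as the changes themselves for several genes. NSDHL differed by 0.76 ± 0.118 at 8 h (limma adjusted p = 4.2e-05), HMGCS1 by 0.73 ± 0.164 (0.00296), EBP by 0.71 ± 0.171 (0.00541) and ACAT2 by 0.66 ± 0.167 (0.00819). DHCR7 differed by 0.75 ± 0.112 at 24 h (limma adjusted p = 5.7e-06). FADS2 differed by 1.32 ± 0.106 at 24 h (limma adjusted p = 6.16e-12) and SCD by 0.69 ± 0.113 (3.19e-05). At 12 h FADS2 and LPIN1 were the fatty acid genes called. Among those not called then were FASN (0.10 ± 0.135), ACACA (0.18 ± 0.131) and ACLY (0.17 ± 0.106), and the sterol enzyme LSS (0.02 ± 0.126) was not called either.

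Single arrays mattered for some of these calls. The 12 h difference of ACAT2 was lost without H460 replicate 2 or 3 of 12 h (limma adjusted p of 0.0762 and 0.0582) or without H1299 replicate 1 or 3 of 12 h (0.0621 and 0.0704). The 24 h count was 17 without replicate 6 of 0 h in H460 and 16 without replicate 2 of 0 h in H1299. The 12 h differences of SC5D and SREBF1 were lost in the same way, without H460 replicate 1 of 12 h among others (limma adjusted p of 0.132 and 0.0692). The remaining 8 held with any 1 array left out: HMGCS1, MVK, SQLE, NSDHL, EBP, DHCR7, FADS2 and LPIN1.

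**Figure D4:**
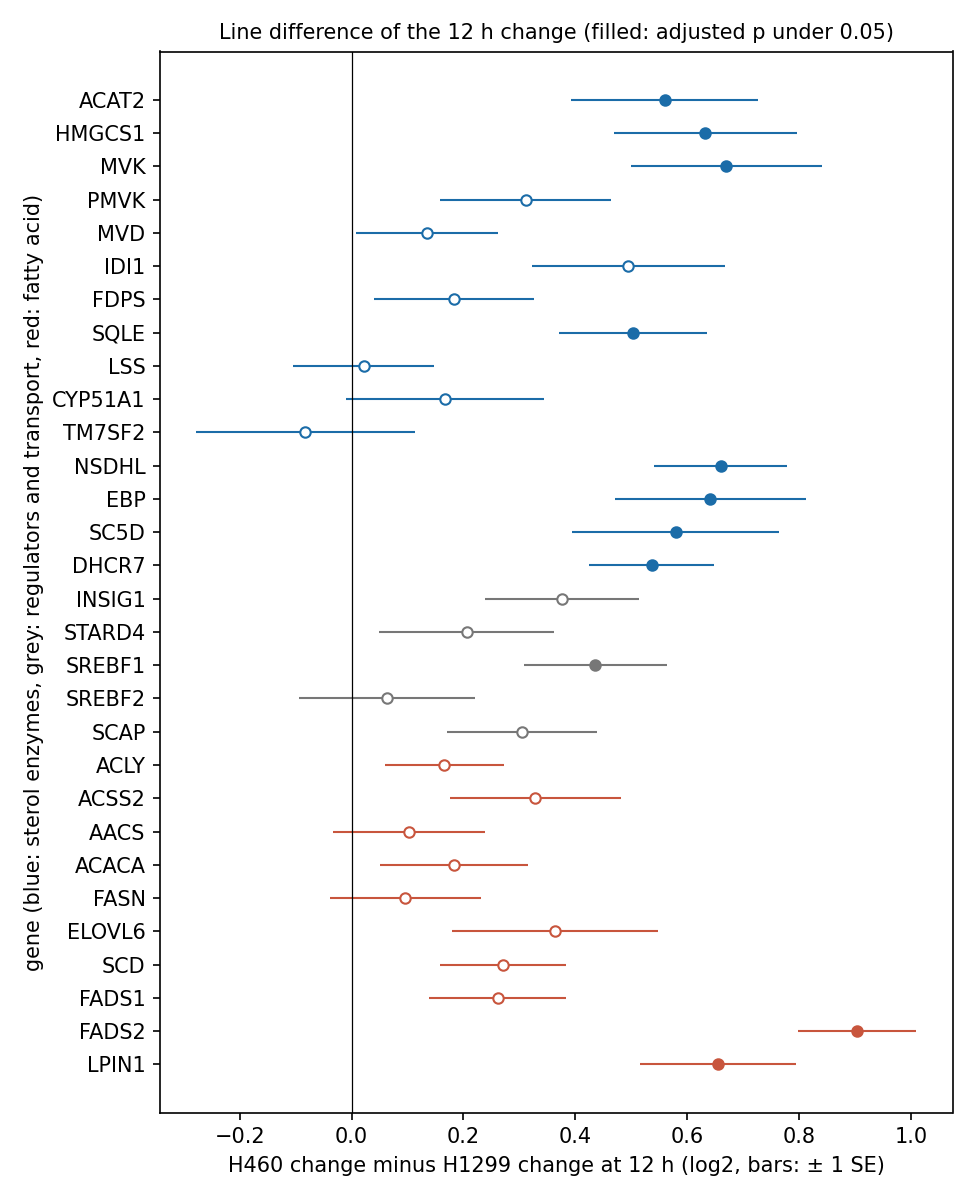
H460 change minus H1299 change at 12 h for each of the 30 genes, in log2 with bars of 1 SE either side; filled points have an adjusted p under 0.05. The 11 filled points all lie to the right of 0, from 0.44 for SREBF1 to 0.90 for FADS2.

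The lines also started from different levels. At 0 h 21 of 30 members differed (limma over the 12 arrays at 0 h), beside 55.1% of all genes, 6 of them higher in H460 (beside 26%) and 15 lower (beside 29.1%). Of the 15 sterol enzymes, 8 were lower in H460 and 1, PMVK, was higher. ACAT2 was 1.56 ± 0.118 lower in H460 (difference -1.56, limma adjusted p = 5.7e-10) and SQLE 1.12 lower (difference -1.12 ± 0.0854, 6.43e-10). At 24 h ACAT2 in H460 was at 8.62, 8.84 and 8.71, still below every H1299 array at 0 h (9.54 to 9.89). FADS2 was higher in H460 by 1.92 ± 0.0714 (limma adjusted p = 7.61e-15), so its largest rise was in the line that already had more of it. LPIN1 was lower in H460 (difference -1.34 ± 0.0902, limma adjusted p = 8.84e-11). NSDHL, EBP, DHCR7 and FDPS were not called at 0 h, with differences between -0.15 and -0.04.

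Before the rise, at 2 h, many members were called lower in H460 (13 of 30, beside 23.7% of all genes) and none higher (beside 16.7%). With width in the model 0 of 30 were called, beside 0% of all genes higher and 0% lower. A count of 0 would hold there for any set of genes, so it tells nothing particular of the members. The changes of IDI1, SQLE, EBP and SC5D were positive in that fit. Without that term STARD4 was at 7.89, 7.72 and 7.01 at 2 h, below every 0 h array, a change of -0.61 ± 0.122 (limma adjusted p = 0.000622). ELOVL6, at 7.26, 7.12 and 6.47, changed by -0.64 ± 0.133 (limma adjusted p = 0.00083). Replicate 3 was the lowest of the 3 for both genes. In H1299 3 members were called higher at 2 h (HMGCS1, INSIG1 and STARD4), beside 5.88% of all genes, and 7 lower, beside 7.93%. STARD4 there was at 8.06, 8.15 and 8.33, above every 0 h array, a change of 0.41 ± 0.0917 (limma adjusted p = 0.00396) that was lost without replicate 3 of 2 h (0.0512), and in all 2 members were called without that array.

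The line difference at 2 h was called for 11 members, 3 higher in H460 (beside 10.2% of all genes) and 8 lower (beside 18.5%). With width in the model it was called for 2 members, beside 1.96% of all genes higher and 3.65% lower, a share also far below that of the fit without width. The count was 3 without replicate 3 of 2 h in H460, and 7 and 5 without replicates 2 and 3 of 2 h in H1299. At 4 h it was called for 7, with 2 higher (beside 3.21%) and 5 lower (beside 5.33%), and the count fell as low as 3 when an array was left out. STARD4 differed at both times, by -1.02 ± 0.157 at 2 h (limma adjusted p = 8.91e-06) and by -0.68 ± 0.157 at 4 h (0.00478).

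Counts for other genes of sterol and lipid handling at 24 h stand beside 16.2% of all genes higher and 12.4% lower in H460, and 8.53% and 3.21% in H1299. These shares were 4.4%, 4.01%, 8.85% and 5.76% with width in the model. Of 9 other sterol synthesis genes 4 were higher and 1 lower in H460, and 1 higher and 1 lower in H1299, with 4 and 7 not called. MSMO1, the C4 methyl oxidase that works with NSDHL, rose by 1.18 ± 0.219 in H460 (limma adjusted p = 0.000251, and 0.121 with width in the model) and by 0.34 ± 0.075 in H1299 (0.00359). Of 9 other SREBP regulators 3 were higher in H460 and 1 in H1299, and 6 and 8 were not called. MBTPS1, the first protease that cuts SREBPs in the Golgi, rose by 0.77 ± 0.0965 in H460 (limma adjusted p = 1.69e-06) and was at 0.11 in H1299 (0.395). INSIG2 rose by 0.68 and 0.39 in the same order, the former not called with width in the model.

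Of 18 other lipid synthesis genes 6 were higher in H460 and 4 in H1299, with ME1, the NADPH-making malic enzyme, up by 0.74 ± 0.119 in H460 (limma adjusted p = 4.37e-05, and 0.0577 with width in the model). Of 9 sterol efflux and LXR genes 4 were higher and 1 lower in H460 and 1 was higher in H1299: the exporter ABCA1 rose in both, by 0.84 ± 0.107 (limma adjusted p = 2.14e-06) and 0.61 ± 0.0886 (3.93e-05). Of 10 uptake and trafficking genes 6 were higher in H460 and 2 in H1299, among them the lysosomal lipase LIPA in H460 (0.97 ± 0.1, limma adjusted p = 1.01e-07) and VLDLR in both (0.80 and 0.60). Of 17 genes of the opposite process, fatty acid oxidation, 10 were higher in H460 and 6 in H1299, and 7 and 11 were not called. PDK4, a kinase that spares glucose when fat is burned, went from a mean of 5.99 to 8.70 in H460, a change of 2.71 ± 0.132 (limma adjusted p = 1.51e-13), and changed by 0.15 in H1299 (0.608), a line difference of 2.56 ± 0.194 (1.06e-12). The numbers higher in H460 with width in the model were 1 of 9 other sterol synthesis genes, 1 of 9 regulators (MBTPS1), 0 of 18 lipid synthesis genes, 2 of 9 efflux genes, 4 of 10 uptake genes and 3 of 17 oxidation genes, and those higher in H1299 were 1, 1, 4, 1, 2 and 6. Lower in that fit were 1 efflux gene and 1 oxidation gene in H460, and 2 sterol synthesis genes and 1 regulator in H1299. ABCA1, LIPA, VLDLR and PDK4 were called in H460 in both fits.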

How the data were processed

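The authors hybridised biotin-labelled target from 100 ng of total RNA to Affymetrix whole-transcript arrays and deposited 1 log2 summary per row and array, per the labels' protocols and the deposited table. How they normalized the log2 values is not given in the sources used here. Values ran from 1.45 to 14.2, and array medians from 5.97 to 6.18. No 2 arrays were identical (0 pairs).

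Of 32321 rows, 19158 had 1 gene symbol, 1388 several and 11775 none in the platform annotation; 19128 symbols matched RefSeq by gene ID, and 754 further rows of a gene were left out, which gave 18404 genes. No filter on dim genes was set. Contrasts were fitted with limma 3.58.1 in R 4.3.3 (lmFit, eBayes with trend), with 1 mean per time point over the 21 arrays of a line, over 42 arrays for line differences and over 12 arrays for 0 h. All tests are two-sided, with Benjamini-Hochberg adjusted p under 0.05 over all genes. Errors after ± are model SEs. Precision is limited by the number of arrays. Scripts were tested on simulated data. There a change of 0.5 put into 100 genes was called for 50 at 24 h in H460 and for 31 in the line difference. A change of 1 was called for 98 and 85 of 100. A member that was not called can thus have changed by about 0.5.

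The members and lists were chosen with earlier results of these data known. All members may be named, and values by array are given for the largest called changes and for members that differ between lines. Of each other list up to 4 genes with the smallest p at 24 h may be named. Other settings were quantile normalization, array width in the model, no trend, no dim genes (33.3% left out), all 42 arrays, 0 h arrays 1 to 3 or 4 to 6, a replicate block and each array left out. Median centring, and leaving out arrays for the sterol and fatty acid means, and array width for the lists of other genes were chosen after seeing the data. The short sterol motif was also added after the longer one had been searched. Promoter sequences are RefSeq's (GRCh38.p14). Some genes are not analysed here.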

Additional observations from a re-analysis of the deposited data

Results flagged for a closer look

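Among 60 groups of 6 arrays (30 members at 0 h in each line), 8 had an array far from the others by Dixon's test. Chance flags about 1 in 20 independent groups, but these groups share the same 12 arrays and are not independent. In H1299, replicate 2 of 0 h was the lowest for 7 members: ACACA at 8.00, ACAT2 at 9.54, EBP at 8.40, FADS1 at 8.95, FDPS at 8.57, SQLE at 9.94 and SREBF2 at 7.55. That array also had the lowest width of the 6 (3.24), and whether the 2 are linked was not tested. In H460, replicate 6 of 0 h was the highest for FADS1 at 10.16.

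The change differed between the lines in 22 members at 1 time or more (H460 minus H1299, limma interaction), each given at the time of its largest called difference. The share of all genes called at 1 time or more was not counted. At single times all genes were called higher and lower in shares of 10.2% and 18.5% at 2 h and 3.21% and 5.33% at 4 h. These shares were 6.56% and 3.55% at 8 h, 5.21% and 3.47% at 12 h, and 7.75% and 4.7% at 24 h. At 2 h the differences were -1.02 for STARD4, -0.72 for SC5D, -0.68 for ELOVL6, -0.59 for CYP51A1, -0.53 for ACACA and 0.36 for MVD. At 4 h they were -0.47 for LSS and -0.33 for ACLY. At 8 h they were 0.76 for NSDHL, 0.73 for HMGCS1, 0.71 for EBP, 0.66 for ACAT2 and 0.60 for IDI1. At 12 h they were 0.67 for MVK, 0.65 for LPIN1 and 0.50 for SQLE. At 24 h they were 1.32 for FADS2, 0.75 for DHCR7, 0.69 for SCD, 0.53 for SREBF2, 0.45 for SREBF1 and 0.42 for AACS. With array width in the model 2 members had a called line difference at 2 h in place of 11, beside 1.96% of all genes higher and 3.65% lower.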

How the results depend on the processing

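With array width in the model, called members in H460 were 0 at 2 h (beside 0% of all genes), 2 at 8 h, 7 at 12 h, 11 at 24 h and 17 over the course. The shares of all genes called higher in that fit were 0.397%, 1.6% and 4.4% at 8, 12 and 24 h. In H1299 5 were called at 24 h against 12 h, beside 5.09% of all genes higher and 3.56% lower. The line difference at 2 h was called for 2, beside 1.96% of all genes higher and 3.65% lower. At 2 h in H460 IDI1 was then at 0.25, SQLE at 0.13, EBP at 0.088 and SC5D at 0.14. ACAT2 in H460 was at -0.0059 at 12 h, and SC5D was at -0.012 at 24 h. The cause was not tested. Quantile normalization gave 12 at 8 h in H460 and 3 at 24 h against 12 h in H1299. At 4 h in H460 1 member was called with no trend, with 0 h replicates 1 to 3 or with 4 to 6, and 5 with all 42 arrays. At 8 h in H460 12 were called with 0 h replicates 4 to 6. At 2 h in H1299 5 were called with 0 h replicates 1 to 3 and 2 with all 42 arrays, and at 24 h against 12 h 0 with all 42 arrays. Median centring, chosen after seeing the data, gave 1 at 24 h against 12 h in H460 and 4 for the line difference at 4 h.

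Replicate numbers did not pair the arrays: correlations of same-numbered arrays ran from -0.37 to 0.197. With the number as a replicate block, H460 had 7 members called at 2 h and 1 at 4 h, and H1299 had 5 called at 2 h, and the other counts stayed within 1.5 times.

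With each array left out in turn, called members in H460 were 9 to 13 at 2 h, 1 to 4 at 4 h, 12 to 23 at 8 h, 22 to 27 at 12 h, 20 to 27 at 24 h, 0 to 4 at 24 h against 12 h and 27 to 28 over the course. In H1299 they were 2 to 15, 10 to 13, 9 to 12, 9 to 13, 9 to 13, 0 to 5 and 13 to 17 in the same order. Line differences were 3 to 14 at 2 h, 3 to 8 at 4 h, 7 to 11 at 8 h, 8 to 14 at 12 h and 8 to 17 at 24 h, and 20 to 23 at 0 h. Of 5313 gene values with 1 array left out, 4941 kept their call, 372 lost it and 0 reversed. Of 214 called gene values, array width in the model kept 125, lost 83 and reversed 6, quantile normalization lost 37, and leaving out dim genes lost 0.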
